A study of Saccharomyces cerevisiae with 8 samples.

Results

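The 10 genes described here, STE2, MFA1, MFA2, STE6, BAR1, SST2, AGA1, AGA2, FUS1 and FAR1, serve mating and the pheromone response of haploid a cells of Saccharomyces cerevisiae. They were chosen by name from the annotation of the array, which held 1 probe for each of the 10 members among 6226 genes measured. Their log2 signals were compared across 4 groups of 2 one-colour arrays each, hybridised with total RNA of BY4741, a laboratory strain of mating type a that needs supplements because of its alleles ura3∆0, met15∆0, leu2∆0 and his3∆1. Cells of all groups carried the empty vector pFL38H with its HIS3 marker and were harvested from plates of solid YNB-derived medium at a common colony size. WT0 was WT yeast without added zinc and WT20 was WT yeast with 20 mM ZnSO4. WTD0 and WTD20 were the same strain expressing AhPDF1.1b, a plant defensin, from plasmid pYX212 under the promoter of triose phosphate isomerase, without and with 20 mM ZnSO4. The labels of the arrays do not say whether WT yeast held pYX212 without insert, the control in other assays of the study.

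In yeast, each haploid mating type releases a peptide pheromone and displays the receptor for that of the other type. Cells of type a release a-factor, encoded by MFA1 and MFA2, and sense alpha-factor through Ste2, which acts through a heterotrimeric G protein and a MAP kinase cascade on the transcription factor Ste12. In a cells the genes specific to this type, here STE2, MFA1, MFA2, STE6, BAR1 and AGA2, are switched on by the factor Mcm1, whereas AGA1, FUS1, FAR1 and SST2 are used by both mating types and are induced by pheromone.

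The signals are log2 values, so that a difference of 1 is a doubling, and the tests compared the same probe between groups. Where levels of different probes stand side by side, as for the deleted genes and markers below, differences between probes were not accounted for. Replicate arrays correlated at r of 0.996 to 0.998 over all genes, and their median absolute difference was 0.0726 to 0.0959. LEU2 and MET17, which BY4741 lacks, gave 5.54 to 5.79, a range reached by the mean of 4.47% of the genes, and every value of the 10 members was above it. The mean log2 signal of the 6 a-cell markers was 9.71 to 9.80 on the WT0 arrays, 7.84 to 8.00 in WT20, 9.96 to 9.99 in WTD0 and 7.98 to 8.04 in WTD20. The mean of the 6 alpha-cell markers was 7.11 to 7.15 in WT0, 6.595 to 6.599 in WT20, 7.04 to 7.05 in WTD0 and 6.88 to 6.897 in WTD20. Over the 8 arrays SAG1, the agglutinin of alpha cells, lay between 7.62 and 8.12, STE3, their receptor, between 6.65 and 7.19, and the probes of HMLALPHA1 and MATALPHA1 between 6.79 and 7.17, above the range of the deleted genes. MF(ALPHA)2, a gene for alpha-factor, stayed between 5.66 and 5.91. MF(ALPHA)1, the other gene for alpha-factor, reached 8.41 in WT0 and is described with its list. HMLALPHA2 and MATALPHA2, which are not among the 6 alpha-cell markers, gave higher values, between 10.47 and 11.21. The loci MAT, HML and HMR hold near-identical copies, so what these probes measured cannot be told apart. The arrays lay on 2 slides. WT20 was wholly on slide 2 and WTD20 wholly on slide 1, and each control group had an array on both. A term for the slide passed the test in 0 of 6226 genes (limma, 104 at an unadjusted p under 0.05). Its size was estimated from the WT0 and WTD0 arrays, since each zinc group lay wholly on its own slide. Slide in the zinc groups was thus not tested.

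Zinc lowered nearly the whole set of mating genes in both yeasts, and without zinc STE2 was higher in AhPDF1.1b yeast than in WT yeast. The labels do not say whether WT yeast held pYX212. In comparisons of the yeasts, AhPDF1.1b and the plasmid that carried it therefore cannot be told apart. In WT yeast 9 of 10 members fell with zinc and none rose, at an unadjusted p under 0.05 either, where 31.5% of all genes fell and 27.8% rose at an adjusted p under 0.05 (limma, Benjamini-Hochberg over all genes). In AhPDF1.1b yeast all 10 fell, against 24.0% of all genes that fell and 21.8% that rose. The median member changed by -1.63 on the log2 scale in WT yeast and by -1.57 in AhPDF1.1b yeast, beside -0.03 and -0.01 for all genes tested. On control medium 1 of 10 members rose with AhPDF1.1b and none fell, beside 3.00% and 2.65% of all genes, and the medians were -0.02 and -0.00. At an unadjusted p under 0.05 also 1 member, FAR1, was lower. Under zinc 3 members were higher and 4 lower in AhPDF1.1b yeast than in WT yeast, beside 26.8% and 22.0% of all genes. The medians there were -0.05 for the members and 0.03 for all genes, with members on both sides. The comparisons share groups, since each group of arrays enters a zinc comparison and an AhPDF1.1b comparison. In RNA of whole colonies, fewer cells expressing a gene and less of its RNA in each cell cannot be told apart.

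**Figure D1:**
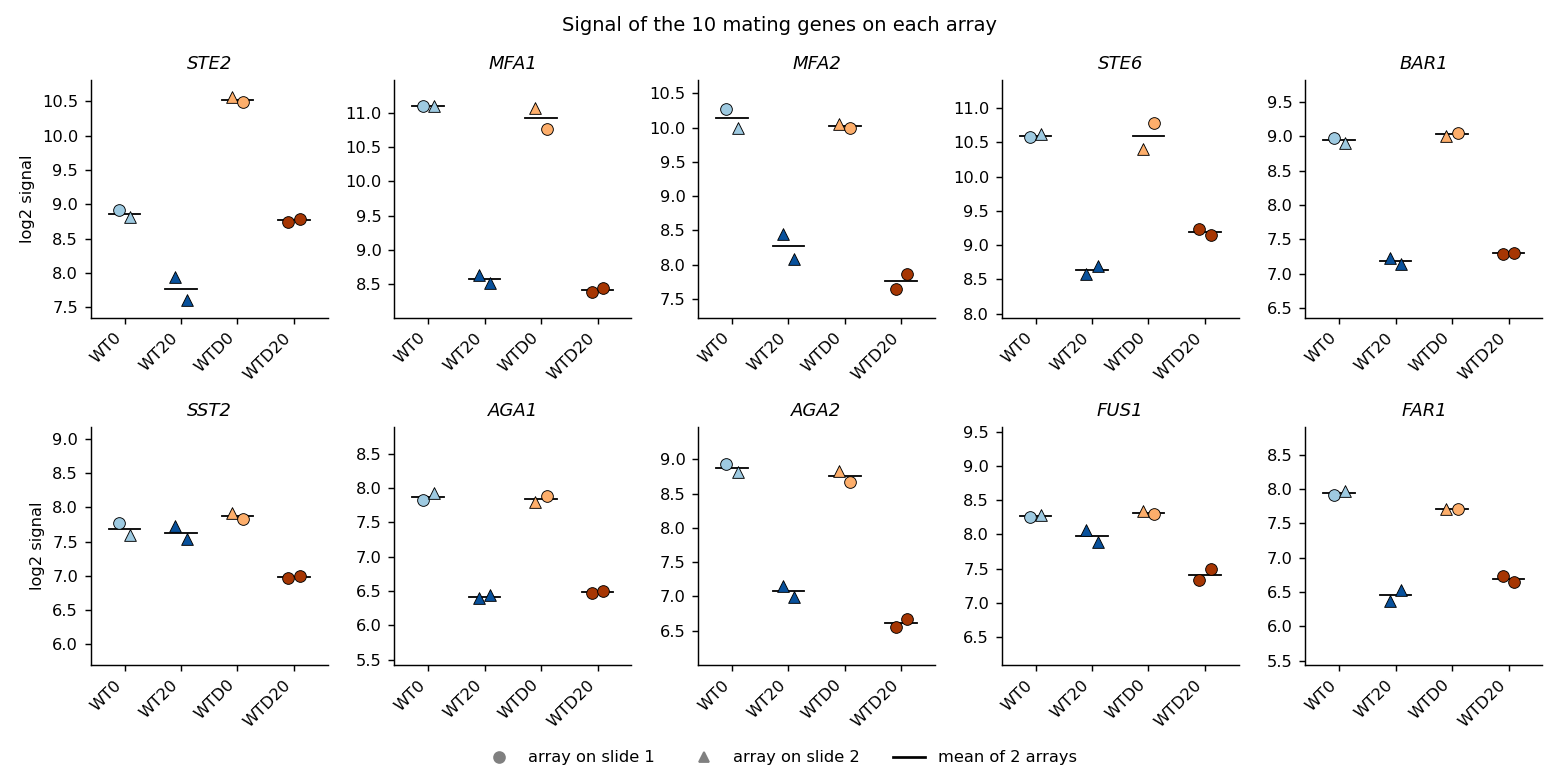
Log2 signal (y axis, the same span in every panel but different limits) of the 10 mating genes in the 4 groups, with a point for each array, circles for slide 1, triangles for slide 2, and a line for the mean of 2 arrays. MFA1 lies at 10.76 to 11.10 in the groups without zinc and at 8.39 to 8.64 in those with zinc, and STE2 stands apart in WTD0 at 10.49 and 10.57.

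The receptor gene STE2 (YFL026W) was the member that passed the test in each of the 5 comparisons. Its log2 signal was 8.92 and 8.81 in WT0, 7.94 and 7.60 in WT20, 10.57 and 10.49 in WTD0, and 8.74 and 8.79 in WTD20. WTD0 was highest and WT20 lowest, without overlap, while the nearest arrays of WT0 and WTD20 lay closer together than the WT0 arrays did. On control medium STE2 was 3.16-fold higher with AhPDF1.1b (log2 fold change 1.66 ± 0.10 SE, adjusted p = 3.4e-05, limma), the highest increase of the 6226 genes in that comparison. The difference was 1.57 between the arrays on slide 1 and 1.76 between those on slide 2. None of the other 9 members passed there. They had log2 fold changes of -0.23 to 0.18, and the one nearest to the threshold was FAR1 with an adjusted p of 0.105.

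Zinc lowered STE2 in both yeasts, with log2 fold changes of -1.09 ± 0.10 in WT yeast (adjusted p = 6.56e-06) and of -1.76 ± 0.10 in AhPDF1.1b yeast (adjusted p = 4.27e-07). Under zinc the AhPDF1.1b yeast still had 1.99-fold more STE2 signal than WT yeast (0.99 ± 0.10, adjusted p = 2.75e-05). With the slide as a block this value was 0.98 (adjusted p = 0.00175). The genes on either side of STE2 on its chromosome did not share the increase on control medium. CAF16 and GYP8 on the one side had log2 fold changes of 0.05 (adjusted p = 0.802) and -0.08 (adjusted p = 0.718), and BST1 and EPL1 on the other 0.07 (adjusted p = 0.644) and 0.23 (adjusted p = 0.0807).

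MFA1 (YDR461W), which encodes a precursor of a-factor, had the largest zinc fall of the members in both yeasts. It gave 11.10 and 11.10 in WT0, 8.64 and 8.52 in WT20, 11.07 and 10.76 in WTD0, and 8.39 and 8.44 in WTD20. The zinc arrays were far below the control arrays and the yeasts lay close together on either medium. The fall was 5.75-fold in WT yeast (log2 fold change -2.52 ± 0.10, adjusted p = 9.13e-09), the tenth largest decrease among all genes, and 5.65-fold in AhPDF1.1b yeast (-2.50 ± 0.10, adjusted p = 2.57e-08). AhPDF1.1b yeast differed from WT yeast by -0.19 on control medium (adjusted p = 0.319) and by -0.16 under zinc (adjusted p = 0.196), neither past the threshold.

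MFA2 (YNL145W), the second a-factor gene, gave 10.28 and 9.999 in WT0, 8.45 and 8.09 in WT20, 10.05 and 9.996 in WTD0, and 7.65 and 7.86 in WTD20. The control groups overlapped, and under zinc both AhPDF1.1b arrays lay below both WT arrays. Zinc lowered MFA2 by 3.64-fold in WT yeast (-1.87 ± 0.13, adjusted p = 6.08e-07) and by 4.80-fold in AhPDF1.1b yeast (-2.26 ± 0.13, adjusted p = 3.25e-07). Under zinc it was 1.43-fold lower with AhPDF1.1b (-0.51 ± 0.13, adjusted p = 0.00679). This call was lost without WT20 replicate 1 (-0.33, adjusted p = 0.0669) and without WTD20 replicate 1 (-0.41, adjusted p = 0.0573).

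STE6 (YKL209C) encodes the membrane transporter that exports a-factor. Its signal was 10.58 and 10.62 in WT0, 8.57 and 8.69 in WT20, 10.40 and 10.78 in WTD0, and 9.24 and 9.14 in WTD20. The WT0 arrays lay between those of WTD0, whereas under zinc the AhPDF1.1b arrays were the higher ones. STE6 fell with zinc by 3.91-fold in WT yeast (-1.97 ± 0.11, adjusted p = 1.44e-07) and by 2.65-fold in AhPDF1.1b yeast (-1.40 ± 0.11, adjusted p = 3.65e-06). The difference under zinc was 0.56 ± 0.11 (adjusted p = 0.00183). It was not past the threshold with the slide as a block (0.39, adjusted p = 0.0748). Under zinc STE6 was thus higher with AhPDF1.1b and MFA2 lower, while MFA1 was not called. No slide held both of these groups, and the calls of STE6 and MFA2 were each lost under an alternative.

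BAR1 (YIL015W) encodes the secreted protease by which a cells degrade alpha-factor. It gave 8.98 and 8.90 in WT0, 7.23 and 7.14 in WT20, 9.01 and 9.05 in WTD0, and 7.29 and 7.30 in WTD20. Zinc separated the arrays, and on each medium those of the 2 yeasts lay close together. BAR1 fell 3.39-fold with zinc in WT yeast (-1.76 ± 0.07, adjusted p = 1.01e-08) and 3.32-fold in AhPDF1.1b yeast (-1.73 ± 0.07, adjusted p = 2.98e-08). The AhPDF1.1b values of 0.09 on control medium (adjusted p = 0.535) and 0.11 under zinc (adjusted p = 0.193) did not pass.

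SST2 (YLR452C), whose product turns the pheromone G protein off and so desensitises the cell, behaved differently from BAR1. Its signal was 7.78 and 7.60 in WT0, 7.72 and 7.54 in WT20, 7.92 and 7.82 in WTD0, and 6.96 and 7.00 in WTD20. The first 3 groups lay between 7.54 and 7.92, and WTD20 stood below them. SST2 was the member that did not pass with zinc in WT yeast (-0.06 ± 0.09, adjusted p = 0.587). In AhPDF1.1b yeast it fell 1.85-fold (-0.89 ± 0.09, adjusted p = 1.84e-05), and under zinc it was 1.57-fold lower with AhPDF1.1b than without (-0.65 ± 0.09, adjusted p = 0.00016).

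The agglutinin of a cells, which holds mating partners together, consists of the anchor Aga1 and the adhesion subunit Aga2. AGA1 (YNR044W) gave 7.83 and 7.92 in WT0, 6.40 and 6.44 in WT20, 7.80 and 7.89 in WTD0, and 6.47 and 6.50 in WTD20. It fell 2.75-fold with zinc in WT yeast (-1.46 ± 0.07, adjusted p = 3.79e-08) and 2.57-fold in AhPDF1.1b yeast (-1.36 ± 0.07, adjusted p = 1.73e-07). The yeasts could not be separated on either medium, with values of -0.03 (adjusted p = 0.858) and 0.07 (adjusted p = 0.444). AGA2 (YGL032C) gave 8.93 and 8.81 in WT0, 7.15 and 6.99 in WT20, 8.84 and 8.67 in WTD0, and 6.55 and 6.67 in WTD20. Its control groups overlapped, and under zinc the AhPDF1.1b arrays were the lower ones. AGA2 fell 3.47-fold in WT yeast (-1.80 ± 0.09, adjusted p = 5.07e-08) and 4.42-fold in AhPDF1.1b yeast (-2.14 ± 0.09, adjusted p = 3.67e-08), and under zinc it was 1.38-fold lower with AhPDF1.1b (-0.46 ± 0.09, adjusted p = 0.00151). Under zinc AGA2 was thus lower with AhPDF1.1b, as MFA2 was, while the anchor was not called.

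FUS1 (YCL027W), needed for the fusion of mating partners and widely used as a reporter of the pheromone pathway, changed little with zinc in WT yeast. It gave 8.26 and 8.28 in WT0, 8.06 and 7.89 in WT20, 8.34 and 8.29 in WTD0, and 7.33 and 7.49 in WTD20. As for SST2, the WTD20 arrays were the lowest. The zinc effect was 1.22-fold in WT yeast (-0.29 ± 0.08, adjusted p = 0.00949). That call was lost without WT0 replicate 2 (-0.28, adjusted p = 0.0505) and without WT20 replicate 2 (-0.21, adjusted p = 0.0898). In AhPDF1.1b yeast FUS1 fell 1.87-fold (-0.90 ± 0.08, adjusted p = 9.89e-06), and under zinc it was 1.48-fold lower with AhPDF1.1b (-0.56 ± 0.08, adjusted p = 0.000258).

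FAR1 (YJL157C), whose product arrests the cell cycle on pheromone and orients growth towards the partner, gave 7.92 and 7.98 in WT0, 6.38 and 6.53 in WT20, 7.71 and 7.72 in WTD0, and 6.74 and 6.65 in WTD20. The zinc arrays lay below the control arrays in both yeasts, by less in AhPDF1.1b yeast, where the control level was lower and the zinc level higher. The fall was 2.82-fold in WT yeast (-1.49 ± 0.07, adjusted p = 5.89e-08) and 2.03-fold in AhPDF1.1b yeast (-1.02 ± 0.07, adjusted p = 2.29e-06). The difference of 0.24 ± 0.07 under zinc (adjusted p = 0.02) was lost with the slide as a block (0.27, adjusted p = 0.107) and without WT20 replicate 1 (0.17, adjusted p = 0.157) or WTD20 replicate 1 (0.20, adjusted p = 0.123).

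**Figure D2:**
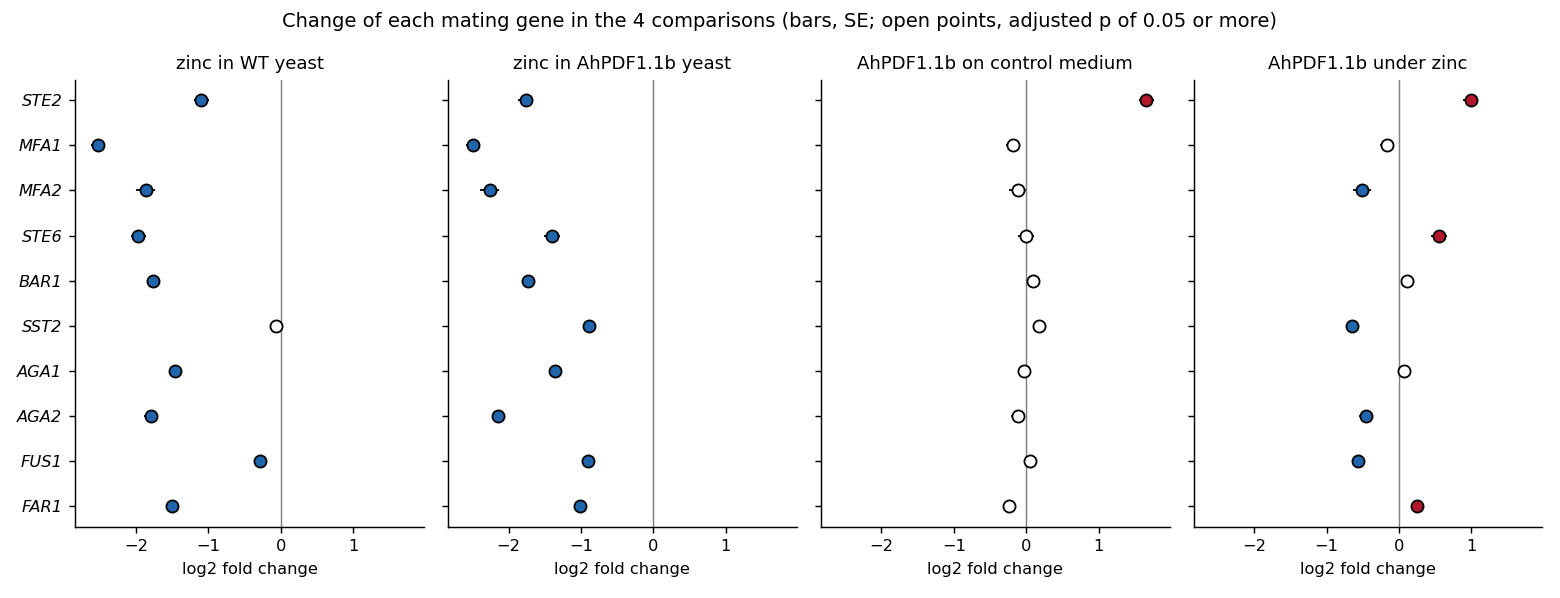
Log2 fold change (x axis) of each mating gene in the 4 comparisons, with bars of 1 SE from the fit to 8 arrays (shorter than the points for some genes). Filled points pass an adjusted p of 0.05, blue for lower and red for higher, and open points do not. With zinc all points but SST2 in WT yeast are filled and below 0, and on control medium STE2 at 1.66 is the filled point.

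The zinc falls were of like size between arrays of the same slide. On slide 2, which held WT20 and a WT0 array, the 9 members that fell in WT yeast differed by -2.52 (MFA1) to -0.30 (FUS1). On slide 1, which held WTD20 and a WTD0 array, the 10 members differed by -2.34 (MFA1) to -0.84 (SST2). With the slide as a block the members that passed were 9 with zinc in WT yeast, 10 in AhPDF1.1b yeast and 1 on control medium, as without it. Of all genes 53.6%, 38.0% and 4.35% passed with the block in these 3 comparisons. For AhPDF1.1b under zinc no slide holds both groups, and 5 members passed with the block in place of 7. Of all genes 28.2% passed there with the block.

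Whether AhPDF1.1b altered the zinc effect itself was tested as the difference of the zinc effects, AhPDF1.1b yeast minus WT yeast. Among all genes this difference was positive and past the threshold for 17.7% and negative for 16.0%. Of the members, 2 were positive, 3 negative and 5 not called, with a median of -0.16 beside 0.03 for all genes. STE2 (-0.67 ± 0.15, adjusted p = 0.0054), FUS1 (-0.61 ± 0.11, adjusted p = 0.00237) and SST2 (-0.83 ± 0.12, adjusted p = 0.000589) lost more signal with zinc in AhPDF1.1b yeast. FAR1 (0.48 ± 0.10, adjusted p = 0.00594) and STE6 (0.56 ± 0.16, adjusted p = 0.0179) lost less. STE6 was not called with the slide as a block (0.39, adjusted p = 0.158), and the other 4 were. For MFA1 (0.02), BAR1 (0.03) and AGA1 (0.10) the differences did not pass (adjusted p = 0.912, 0.862 and 0.47), nor did those of MFA2 (-0.40, adjusted p = 0.115) and AGA2 (-0.35, adjusted p = 0.0537). For STE2 the larger fall started from the raised control level in WTD0.

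The array profiles of the members were set against those of 4059 other named genes by the root mean square difference of the 8 values, each gene first centred on its own mean. It was done for the 8 members whose group means spanned at least 1 on the log2 scale, which left out FUS1 and SST2. MFA2 and AGA2 were each other's nearest gene, at 0.0895, beside root mean squares of 1.06 and 1.00 for their own profiles. MFA1 lay nearest to DSE2 (0.179), a daughter-cell gene of cell separation, and to BIO5 (0.192), a biotin pathway transporter. STE6 lay nearest to GDH1 (0.101), a glutamate dehydrogenase, and ZRT2 (0.124), the low-affinity zinc transporter of the plasma membrane. AGA1 (0.0897) and BAR1 (0.154) both had FLO11, a cell surface adhesin, as nearest gene. FAR1 lay nearest to RPS9B (0.0847), which encodes a ribosomal protein. STE2 had no near neighbour, since the closest gene, MLS1 for a malate synthase, was at 0.528, beside 0.994 for the profile of STE2 itself. These are descriptions over 8 arrays of 4 groups, and all genes were read from the same arrays.

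**Figure D3:**
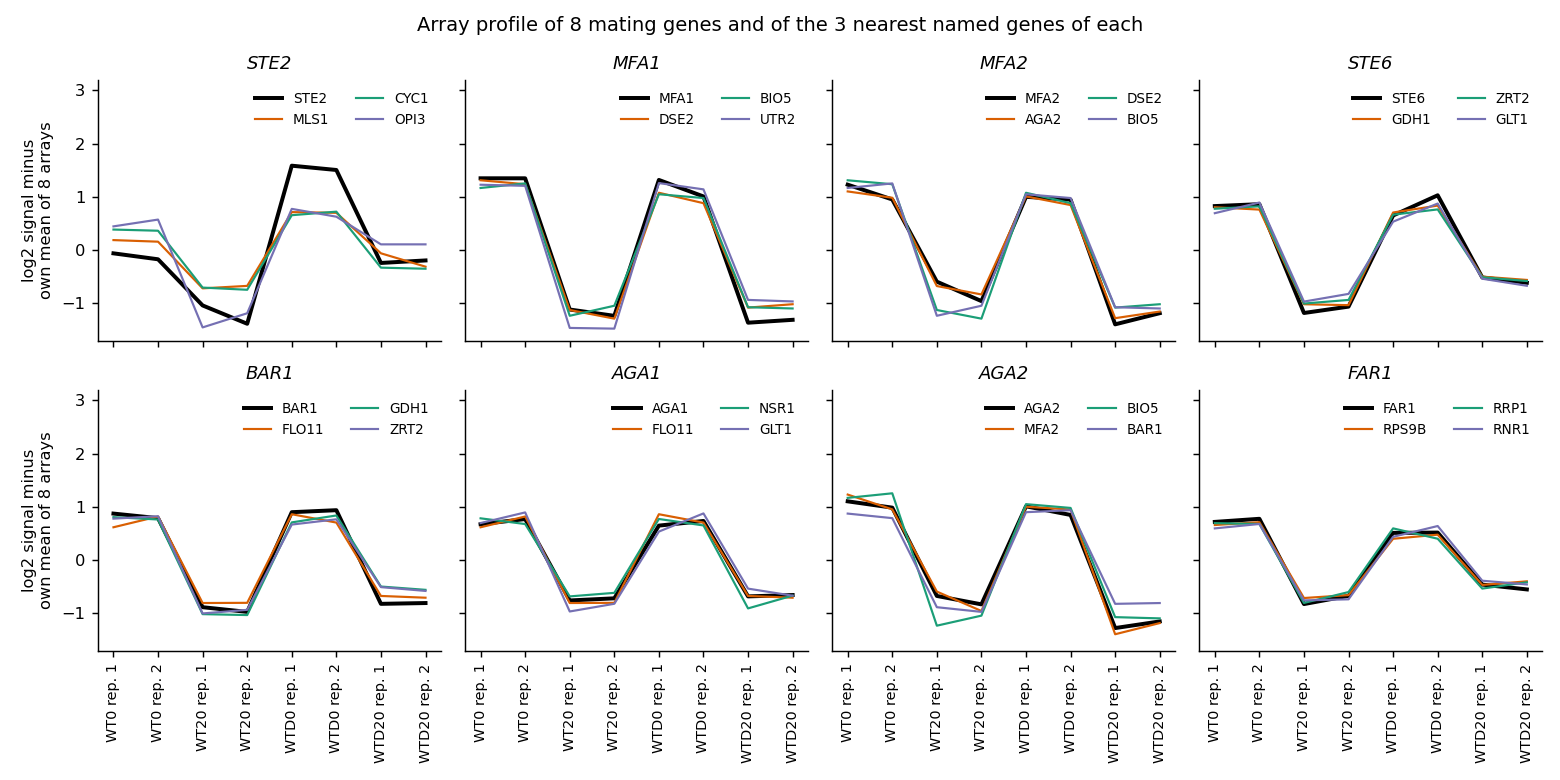
Log2 signal minus the mean of the gene's own 8 arrays (y axis) for 8 mating genes (black) and the 3 named genes with the smallest root mean square difference from each (colours), array by array (x axis). The lines of STE6, AGA1 and FAR1 lie almost on those of their neighbours, while STE2 rises above MLS1, CYC1 and OPI3 in WTD0.

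As an example of the genes listed by profile, ZRT2, near to STE6, gave 9.89 and 9.93 in WT0, 8.11 and 8.17 in WT20, 9.78 and 9.88 in WTD0, and 8.60 and 8.53 in WTD20. GDH1 lay nearer to STE6 (0.101, beside 0.124 for ZRT2), so the likeness did not single out ZRT2. The genes were listed for likeness, so the values of ZRT2 are a description with no test.

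The genes that carry the pheromone signal from receptor to nucleus did not follow the members as a group. Of 16 genes of the signalling core, 6 fell and 3 rose with zinc in WT yeast and 5 fell and 2 rose in AhPDF1.1b yeast (1 without WTD20 replicate 1). The median log2 fold changes were -0.15 and 0.03. Of all genes 31.5% fell and 27.8% rose in WT yeast, and 24.0% fell and 21.8% rose in AhPDF1.1b yeast. These shares, and those given above for AhPDF1.1b, stand beside the counts of each list. The core genes that fell included the G protein subunits STE4 (beta) and GPA1 (alpha) and the transcription factor STE12. STE4 changed by -0.84 in WT yeast (adjusted p = 2.46e-06) and by -0.46 in AhPDF1.1b yeast (adjusted p = 0.000357), GPA1 by -0.60 (adjusted p = 1.41e-05) and -0.42 (adjusted p = 0.000351), and STE12 by -0.60 (adjusted p = 1.83e-05) and -0.77 (adjusted p = 6.35e-06). STE5, the scaffold of the kinases, rose by 0.65 in WT yeast (adjusted p = 1.99e-05) and by 0.43 in AhPDF1.1b yeast (adjusted p = 0.000725). On control medium none of the 16 passed in either direction with limma, nor at an unadjusted p under 0.05, where the count was 0, nor under any alternative run. Under zinc 5 were higher and 1 lower in AhPDF1.1b yeast, with 1 higher and none lower with the slide as a block, and 3 higher without either WT20 array or without WTD20 replicate 1. FUS3, the MAP kinase of the pathway, was among the higher ones (0.54, adjusted p = 0.0026). DIG1, a repressor of Ste12 (0.44, adjusted p = 0.00273), was not called with the slide as a block (0.30, adjusted p = 0.0994), nor were STE50 (0.39, adjusted p = 0.0813) and STE4 (0.20, adjusted p = 0.196).

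**Figure D4:**
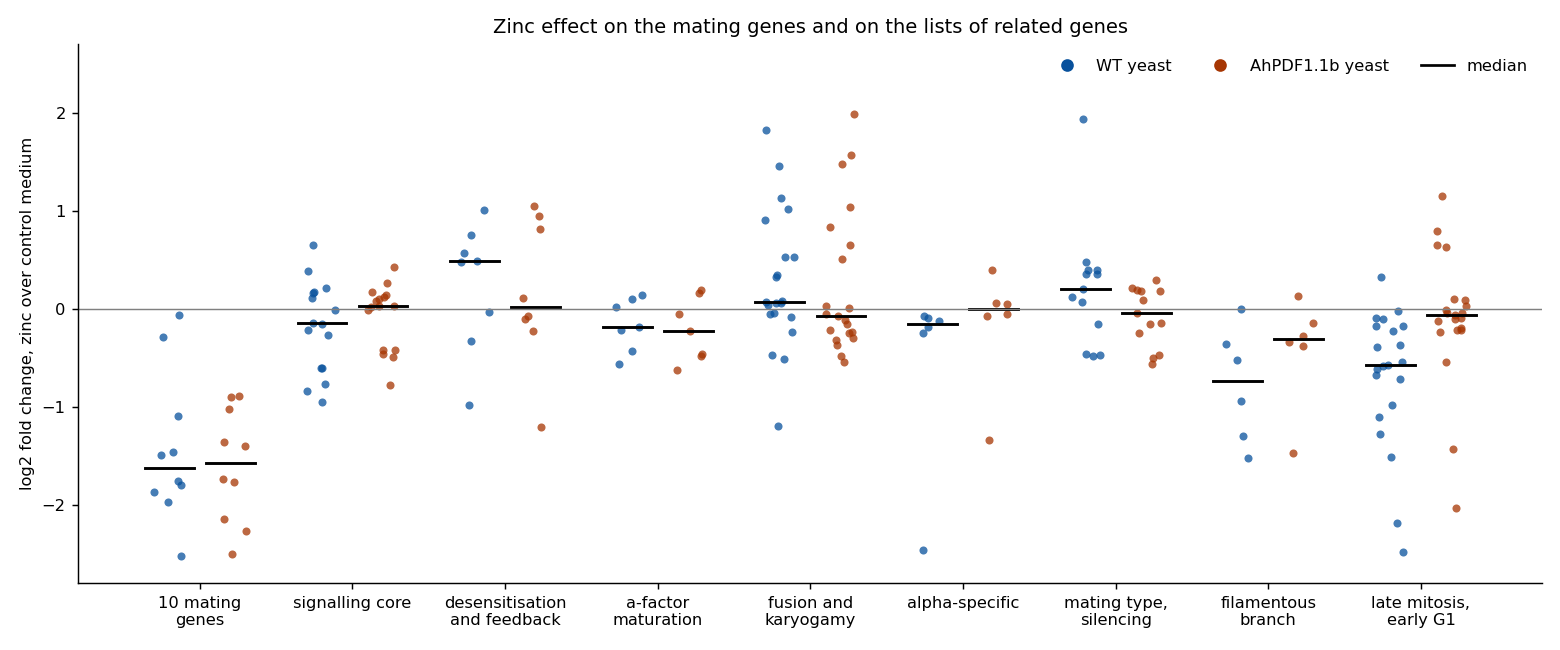
Log2 fold change with zinc (y axis) of the 10 mating genes and of each gene in 8 lists of related genes (x axis), blue for WT yeast and brown for AhPDF1.1b yeast, with a line at the median. The medians of the mating genes are -1.63 and -1.57, below those of the 8 lists, the lowest of which is -0.73 for the filamentous branch in WT yeast.

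Among 8 genes of desensitisation and feedback, 5 rose and 2 fell with zinc in WT yeast and 3 rose and 1 fell in AhPDF1.1b yeast. PTP2, a phosphatase that acts on Fus3, rose by 1.01 in WT yeast (adjusted p = 8.31e-07) and by 1.04 in AhPDF1.1b yeast (adjusted p = 1.35e-06). ASG7, an a-specific gene that dampens signalling after mating, fell with the members, by 0.99 in WT yeast (adjusted p = 1.11e-06) and also in AhPDF1.1b yeast (adjusted p = 5.58e-07). Its signal was 8.69 and 8.53 in WT0, 7.65 and 7.60 in WT20, 8.45 and 8.43 in WTD0, and 7.22 and 7.26 in WTD20. The 2 falls in WT yeast were 1 without WT0 replicate 1 or WT20 replicate 1, and the 1 in AhPDF1.1b yeast was 2 without WTD0 replicate 2. Under zinc 2 genes of this list were higher and 4 lower in AhPDF1.1b yeast, ASG7 among the lower ones (-0.38, adjusted p = 0.0015). With the slide as a block none was higher and 2 were lower.

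The enzymes that mature a-factor by farnesylation, cleavage and methylation moved less than the genes of the peptide itself. Of 7 genes, 4 fell and none rose with zinc in WT yeast, and 3 fell and 1 rose in AhPDF1.1b yeast. The farnesyltransferase subunits fell in both yeasts, RAM1 by 0.57 (adjusted p = 6.66e-05) and 0.47 (adjusted p = 0.000496), and RAM2 by 0.43 (adjusted p = 0.000745) and 0.48 (adjusted p = 0.000629). STE14, the methyltransferase, fell by 0.18 in WT yeast (adjusted p = 0.0454) and by 0.62 in AhPDF1.1b yeast (adjusted p = 5.48e-05). The 4 falls in WT yeast were 2 without any of the WT0 and WT20 arrays and 2 with a replicate block, which left STE14 (adjusted p up to 0.188) and RCE1, a protease, uncalled. The rise in AhPDF1.1b yeast, of the protease STE24 (0.19, adjusted p = 0.0428), was lost with the slide as a block and without each of the 8 arrays in turn. None of the 7 passed on control medium with limma, where 1 was higher and 1 lower at an unadjusted p under 0.05. Under zinc 1 was higher and 2 were lower in AhPDF1.1b yeast, and none of these 3 passed with the slide as a block.

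The 21 genes induced by pheromone for cell fusion and karyogamy were divided. With zinc 9 rose and 4 fell in WT yeast and 7 rose and 8 fell in AhPDF1.1b yeast, with medians of 0.07 and -0.07. The 8 falls in AhPDF1.1b yeast were 4 without WTD20 replicate 1, 5 without WTD0 replicate 1 and 4 without the dimmest 25% of genes. PRM7 rose by 1.82 (adjusted p = 1.33e-08) and 1.57 (adjusted p = 1.03e-07), PRM10 by 1.46 (adjusted p = 1.89e-07) and 1.98 (adjusted p = 5.1e-08), and PRM4 by 1.01 (adjusted p = 4.35e-07) and 1.04 (adjusted p = 8.18e-07), in WT and AhPDF1.1b yeast. CHS1, a chitin synthase that repairs the wall at cell separation, rose by 1.13 (adjusted p = 1.73e-06) and 1.47 (adjusted p = 5.58e-07). PRM7, PRM10, PRM4 and CHS1 thus went opposite to AGA1 and FAR1, which pheromone also induces. The 4 genes of the list that fell in WT yeast fell in AhPDF1.1b yeast too. Among them SCW10 changed by -1.19 (adjusted p = 3.22e-06) and -0.48 (adjusted p = 0.00305). On control medium CIK1, a kinesin partner in karyogamy, was the gene of this list that passed (-0.25, adjusted p = 0.0408), and with the slide as a block it did not (adjusted p = 0.0764). The call was also lost with a replicate block and without each of the WT0, WT20 and WTD0 arrays in turn. Under zinc 4 were higher and 7 lower in AhPDF1.1b yeast, and with the slide as a block 1 and 4. Without WT20 replicate 1 or WTD20 replicate 2 there were 2 higher, and without the dimmest 25% of genes 2 lower.

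The alpha-specific genes gave a check of mating type and of the direction of change. Of 6, 3 fell with zinc in WT yeast (1 without WT0 replicate 1, without WT20 replicate 2 or without the dimmest genes), and 1 rose and 1 fell in AhPDF1.1b yeast. MF(ALPHA)1 gave 8.41 and 8.36 in WT0, 5.84 and 6.00 in WT20, 7.66 and 7.61 in WTD0, and 6.28 and 6.32 in WTD20, so that the 4 groups did not overlap. It changed with zinc by -2.46 in WT yeast (adjusted p = 1.36e-09) and by -1.34 in AhPDF1.1b yeast (adjusted p = 2.7e-07), in cells labelled as mating type a. The WT20 values lay just above the 5.54 to 5.79 of the deleted LEU2 and MET17, so the fall in WT yeast ended near that level. On control medium MF(ALPHA)1 was lower with AhPDF1.1b (-0.75 ± 0.07, adjusted p = 0.0003), the opposite of STE2, the receptor for the peptide it encodes. Probe sequences were not used, so RNA of a similar sequence binding to this probe cannot be told apart. Under zinc 5 of 6 alpha-specific genes were higher in AhPDF1.1b yeast, beside 26.8% of all genes. HMLALPHA1 (0.27) and MATALPHA1 (0.28) were among the 5 and, as near-identical copies, are not separate counts. The STE3 difference was 0.53 (adjusted p = 0.000238) and SAG1 was at 0.35 (adjusted p = 0.0048, and 0.0504 with the slide as a block). The count was 3 with that block and without WTD20 replicate 2, and 1 among the alpha-specific genes left once the dimmest 25% of all genes were removed.

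Of 13 regulators of mating type and silencing, MCM1 changed most. It encodes the factor that binds, with partners, at the genes of each mating type. Its signal was 9.70 and 9.79 in WT0, 11.57 and 11.81 in WT20, 9.77 and 9.75 in WTD0, and 9.55 and 9.69 in WTD20. WT20 stood apart and the other groups lay between 9.55 and 9.79. MCM1 rose with zinc in WT yeast by 1.94 ± 0.09 (adjusted p = 3.02e-08) and under zinc was lower with AhPDF1.1b by 2.07 (adjusted p = 5.65e-08, and with the slide as a block -2.02, adjusted p = 1.04e-05). Within slides the zinc effect was 1.89 for WT yeast and -0.14 for AhPDF1.1b yeast. The part of MCM1 in the values of the members was not tested. In the list as a whole 6 rose and 3 fell with zinc in WT yeast, and 2 rose and 3 fell in AhPDF1.1b yeast, where with the slide as a block none rose. HO, the mating type endonuclease, and TUP1, a corepressor, fell in both, HO by 0.48 (adjusted p = 0.000243) and 0.50 (adjusted p = 0.000319), and TUP1 by 0.46 (adjusted p = 0.00121) and 0.47 (adjusted p = 0.00173). None of the 13 passed on control medium with limma, under any alternative run or at an unadjusted p under 0.05. Under zinc 1 was higher and 4 lower with AhPDF1.1b. The probes for genes at MAT, HML and HMR, which hold near-identical copies, could not be told apart. HMRA2, HMLALPHA2 and MATALPHA2 were among the 4 lower genes, so these are not separate counts.

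**Figure D5:**
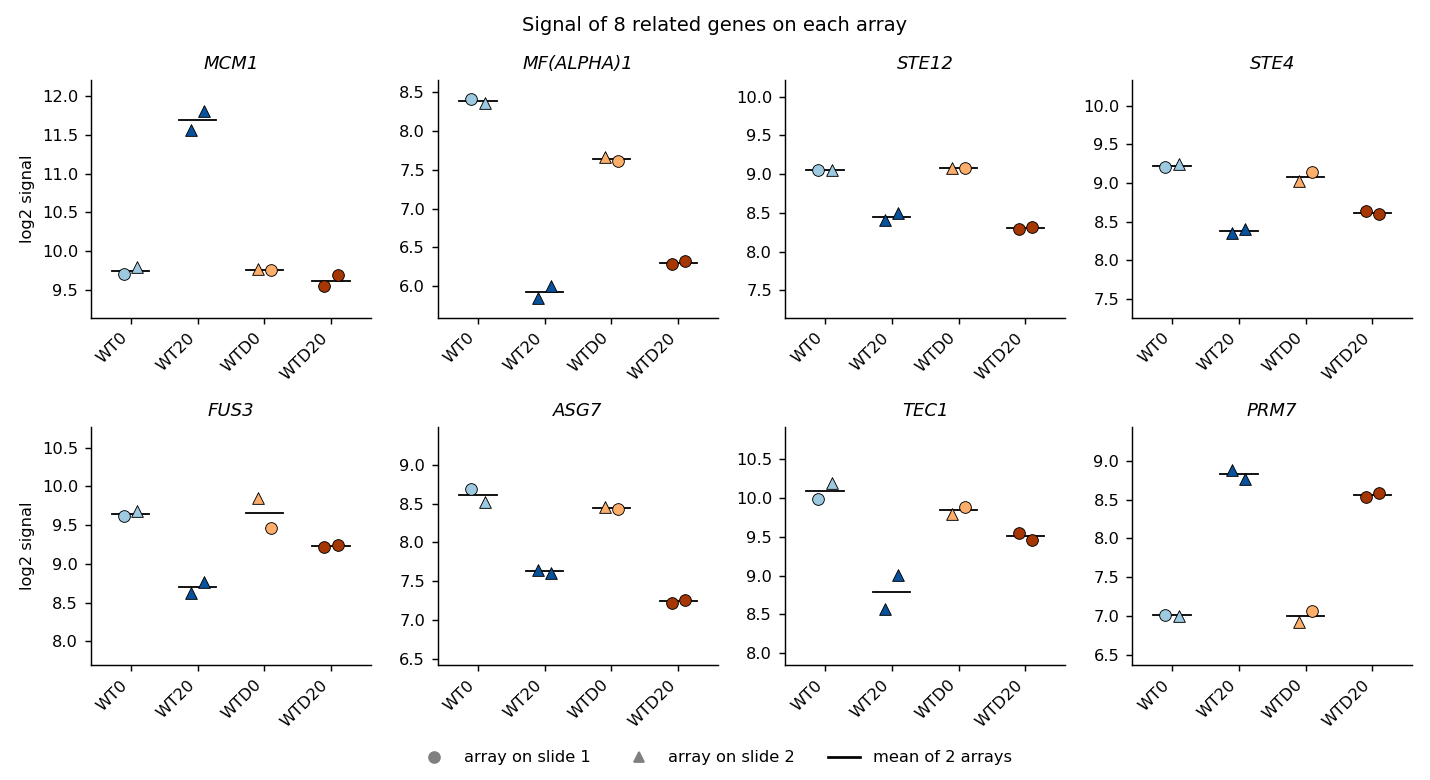
Log2 signal (y axis, the same span in every panel but different limits) of 8 genes outside the set, with a point for each array, circles for slide 1, triangles for slide 2, and a line for the mean of 2 arrays. MCM1 is high in WT20 alone at 11.57 and 11.81, MF(ALPHA)1 is lowest there at 5.84 and 6.00, and PRM7 is higher with zinc in both yeasts.

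The filamentous growth pathway shares its kinases with the pheromone pathway. Of its 6 genes, 5 fell with zinc in WT yeast and 3 in AhPDF1.1b yeast, and none rose. FLO11 fell by 1.52 (adjusted p = 1.31e-07) and 1.47 (adjusted p = 3.54e-07). TEC1, the partner of Ste12 in this pathway, fell by 1.30 in WT yeast (adjusted p = 8.45e-06), to 8.57 and 9.01 from 9.99 and 10.20, and lay at 9.79 and 9.89 in WTD0 and at 9.55 and 9.46 in WTD20. On control medium none of the 6 passed with limma, under any alternative run either, and 1 was higher at an unadjusted p under 0.05. Under zinc 3 were higher and none lower in AhPDF1.1b yeast.

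Genes of late mitosis and early G1, a phase in which Mcm1 also acts and pheromone arrests a cells, were measured as a sign of the cell cycle stage of the colonies. Of 21 measured, 15 fell (10 to 17 over the alternatives) and 1 rose with zinc in WT yeast (median -0.57), and 5 fell (3 without WTD20 replicate 1) and 4 rose in AhPDF1.1b yeast (median -0.06). DSE2 fell by 2.48 (adjusted p = 4.11e-09) and 2.03 (adjusted p = 5.06e-08), and CTS1, the chitinase of cell separation, by 2.19 (adjusted p = 3.02e-08) and 1.43 (adjusted p = 1.57e-06). EGT2 fell by 1.51 in WT yeast (adjusted p = 9.41e-08), and SWI5, the factor that drives many of these genes, by 1.28 (adjusted p = 2.36e-07). On control medium SWI5 (-0.43, adjusted p = 0.0098) and DSE1 (-0.33, adjusted p = 0.028) were lower with AhPDF1.1b. Both calls were lost without WT0 replicate 1 or WTD0 replicate 1, and that of DSE1 also without WT0 replicate 2 (adjusted p up to 0.116 and 0.229). Under zinc 14 of the 21 were higher in AhPDF1.1b yeast and none lower, led by DSE4 (1.53, adjusted p = 2.59e-07) and EGT2 (1.32, adjusted p = 7.51e-07), and the count was 10 to 14 over the alternatives. Of all genes 26.8% were higher and 22.0% lower in that comparison. The part of cell cycle stage in the values of the members was not tested.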

How the data were processed

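Cy3-labelled cRNA from 8 RNA samples had been hybridised to Agilent yeast arrays of a single colour, with 2 biological replicates a group. The deposited values are log2 signals, 1 per probe and array. R 2.14.2 and limma are named by the submitters' processing notes. How background was corrected and signals normalized is not stated in the text, labels or files used, but array quantiles were nearly equal, as after normalization between arrays. Of 6227 probes 4061 had 1 gene symbol and 2166 had none. RefSeq (R64 assembly, used for names only) updated 125 symbols, and the FDH2 probes were averaged, which left 6226 genes.

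Group means of all 8 arrays were fitted with limma 3.58.1 in R 4.3.3 (lmFit, eBayes, 4 residual and 6.36 prior degrees of freedom). The Benjamini-Hochberg adjustment ran over all genes within each of 5 comparisons, at a threshold of 0.05 with no minimum fold change. The steps were tested on simulated data. The 10 members, the 8 lists and the tests were chosen with earlier results of these data known. All members are named, and from each list up to 4 genes with the smallest p in a comparison. Precision is limited by the number of arrays, 2 a group. As alternatives, values were quantile normalized or median centred, the dimmest 25% of genes were left out, slide or replicate number entered as a block, moderation used an intensity trend and robust fitting, only the arrays compared were fitted, the probe with the highest mean replaced an average, and each array was left out in turn.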

Additional observations from a re-analysis of the deposited data

Results flagged for a closer look

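The values below are differences between the zinc effects of the AhPDF1.1b yeast and the WT yeast on the log2 scale, and each was singled out because the test of that difference passed. Among the 10 mating genes they were -0.67 for STE2, -0.83 for SST2, -0.61 for FUS1, 0.48 for FAR1 and 0.56 for STE6. MCM1 stood furthest from 0, at -2.08, and of the probes at the mating type loci HMRA2 was at -0.91, MATALPHA2 at -0.55 and HMLALPHA2 at -0.60. MF(ALPHA)1 was at 1.13 and STE3 at 0.59. For MF(ALPHA)1 the WT20 values lay near the level of the deleted genes, and the control level was lower in WTD0 than in WT0.

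In the signalling core the values were 0.38 for STE4, 0.54 for FUS3 and 0.38 for DIG1. MSG5, a phosphatase acting on Fus3, was at -0.68, AFR1 at 0.47, YCK2 at -0.38 and STE14 at -0.44. Among the fusion genes PRM9 was at -0.65, GIC2 at -0.69, SCW10 at 0.71 and PRM10 at 0.52. In the filamentous branch SVS1 was at 0.66 and TEC1 at 0.97. The late mitosis and early G1 genes DSE4 (1.69), EGT2 (1.61), ASH1 (1.22) and MCM2 (0.98) were all positive. With the slide as a block STE6, STE4, DIG1, AFR1, YCK2, STE14 and HMLALPHA2 were no longer called, and FUS3 was not called without 5 of the 8 arrays in turn (adjusted p up to 0.0865).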

How the results depend on the processing

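The number of members that passed stayed within 1.5 times of the value given in all 5 comparisons under every alternative run. Of 780 member values under alternatives, 751 kept their direction and their side of the threshold, 11 lost the call, 4 gained it and 14 changed sign, none of these a called value. Part of the 780 could hardly move. Each member had 1 probe, so the probe with the highest mean was the one already used. Array quantiles were nearly equal before values were normalized again. Leaving out an array from outside a comparison did not alter its fold change. The values that changed sign lay, over the arrays left out, between -0.15 and 0.0351 for SST2 with zinc in WT yeast. On control medium they lay between -0.25 and 0.0232 for MFA2, -0.19 and 0.18 for STE6 and -0.0793 and 0.0175 for AGA1, and STE6 was at 0.0001 with quantile normalization. For the difference of the zinc effects they lay between -0.13 and 0.18 for MFA1 and between -0.0171 and 0.0707 for BAR1, which was at -0.0348 with the slide as a block. MFA2 gained the call for that difference without WT20 replicate 2 (-0.58, adjusted p = 0.0293), and AGA2 with an intensity trend and robust moderation (-0.35, adjusted p = 0.0418), without WT20 replicate 2 (-0.43, adjusted p = 0.0441) and without WTD0 replicate 2 (-0.43, adjusted p = 0.035). STE6 lost it without WT20 replicate 1 (0.50, adjusted p = 0.063) and without WTD20 replicate 1 (0.51, adjusted p = 0.0568). The causes were not tested. Over all genes the calls on control medium went from 352 to 94 and 98 without WT0 replicate 1 or 2 and to 206 and 220 without WTD0 replicate 1 or 2. With the slide as a block they went from 3037 to 1755 for AhPDF1.1b under zinc and from 2095 to 1258 for the difference. Replicates of the same number deviated together at r of -0.53 (WT0 and WTD20) to 0.54 (WT0 and WT20). The sign differed between pairs of groups, so the numbers did not pair all groups alike. What the deviating arrays shared was not tested. With a replicate block the members called stayed 9, 10, 1, 7 and 5. The shares of all genes called were then 57.7%, 44.0%, 4.48%, 46.8% and 31.0%, in the same order. Fitting only the arrays compared gives no value for the difference. AGA1 and FAR1 were among the dimmest 25% of genes. An array left out leaves its group with 1 sample, assumed to vary like the others. Whether a signal was above background was not given.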
